A study of Mus musculus with 34 samples.

Results

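The 9 genes described here are expressed by the liver's endothelium. They are *Stab1*, *Stab2*, *Clec4g*, *Fcgr2b*, *Lyve1*, *Kdr*, *Wnt2*, *Wnt9b* and *Rspo3*, and they were followed in whole livers through the first 24 hours after partial hepatectomy (PHx). The genes were taken by symbol, and all 9 of these members were found among the 78298 genes of the deposited table and passed the filter on low counts that left 14980 genes to test. In WT livers, 6 of the 9 were lower at 24 hours than at 0 hours, where 14.6% of all tested genes were lower, and *Wnt2* showed the largest difference of the 9, being 3.92-fold lower in the fit. In livers of mice that lack SIRT1 in the intestine, *Stab2*, *Clec4g*, *Fcgr2b* and *Kdr* were also lower at 24 hours (24% of all genes were lower there), whereas *Wnt2* did not pass the test and *Wnt9b* was 2.10-fold higher. *Wnt2* and *Wnt9b* were the 2 members that differed between the genotypes at 24 hours, at 3.98-fold and 3.77-fold higher levels in the knockout, beside 5.81% of all genes that differed in either direction. Both calls rested on a fit that pools the spread of all 34 livers, and neither passed when only the 2 groups compared were fitted. The rise of *Wnt9b* in the knockout did not pass in such a fit either. The change from 0 to 24 hours was not shown to differ between genotypes, with interaction adjusted p of 0.163 for *Wnt2* and 0.25 for *Wnt9b* (edgeR). Without WT 24-hour livers 1 and 2, the 6 falls in WT livers did not pass.

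Liver sinusoidal endothelial cells line the fenestrated capillaries between the plates of hepatocytes, and they clear macromolecules and immune complexes from blood through scavenger, lectin and Fc receptors. Endothelial cells of the central vein and the neighbouring sinusoids also secrete Wnt ligands and R-spondin, which bind receptors on nearby hepatocytes and maintain pericentral gene expression through beta-catenin. After PHx, vascular endothelial growth factor receptor signalling in sinusoidal cells is a known inducer of Wnt2 and of hepatocyte growth factor.

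The study compared mice lacking SIRT1 in the intestinal epithelium, written SIRTintKO here and SIRT1intKO in the labels, with WT mice. Mice were 8 to 12 weeks old and on a C57/Bl6 background, SIRTintKO mice carried *Sirt1* alleles with exon 4 between loxP sites together with a Villin-driven Cre recombinase, and the controls called WT carried the floxed alleles without Cre. By the sample labels, livers were taken untreated at 0 hours from 6 WT and 6 SIRTintKO mice. At 6 hours after resection of 70% of the liver there were 6 WT and 5 SIRTintKO mice. At 24 hours there were 4 WT and 7 SIRTintKO mice. The paper's figure legends differ, with 5 livers of each genotype at 6 hours, and 5 WT and 7 SIRTintKO livers at 24 hours. The labels were followed here. The library name of WT 6-hour liver 6 lies among those of 24-hour livers. Counted at 24 hours, this liver would bring the label counts to those of the legends. Whether its label is right was not tested. Because Villin-Cre acts in the gut epithelium, *Sirt1* in the liver does not check the genotype labels, and no sham-operated livers were used here. Polyadenylated RNA of whole liver was sequenced, so a lower level of an endothelial gene cannot be told apart from fewer endothelial cells, nor from a rise of other cells' RNA.

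Levels are given in CPM, each gene's counts relative to a library total scaled by TMM normalisation factors, and fold changes are log2 values from edgeR's quasi-likelihood fit. A gene passed when its Benjamini-Hochberg adjusted p over all 14980 genes was under 0.05. Library totals ranged from 14892122 to 23480492 counts. The 0-hour livers carry library names from another number range than the livers after PHx, so differences from 0 hours cannot be told apart from a difference between those series. Comparisons of 24 with 6 hours and of genotypes lie within one number range. Among the livers after PHx, the names of 24-hour livers lie on both sides of most 6-hour names. An effect of this order on those comparisons was not tested.

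The 24-hour livers did not form 1 tight group in either genotype. On the first principal component of all tested genes, which held 40.7% of the variance, WT 24-hour livers 1 and 2 lay at 86.2 and 95.9, near most SIRTintKO 24-hour livers, which lay from 49.7 to 80.3. WT 24-hour livers 3 and 4 lay at -8.02 and -17.6, and SIRTintKO 24-hour liver 5 lay at 8.10. The library names of WT livers 3 and 4 and SIRTintKO liver 5 lie close together, but that of WT liver 2 lies directly beside that of WT liver 3. The order of names therefore does not separate the 2 WT pairs, and whether any of these livers were processed apart was not tested. Results at 24 hours are therefore given with all livers and, for the WT group, also without each of these pairs, a choice made after seeing the data.

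Promoter sequence was available for 7 of the 9 members, all but *Lyve1* and *Rspo3*, as the 250 bases before and 50 bases after the annotated start (RefSeq, build GRCm38.p6). The pair that differed between the genotypes, *Wnt2* and *Wnt9b*, is shown first, followed by *Kdr*, *Stab2* and *Clec4g*, which were lower at 24 hours in both genotypes. Each is written in the direction of transcription. Capitals mark exact matches on either strand to GATAAG (read by GATA factors), CCGGAA (read by ETS factors), AGGAAG (likewise by ETS factors), TGGGAA (read by RBPJ) and TATAAA (the TATA box), letters that belong to factor families known from endothelial or core promoters.
*Wnt2*, chr6:18030396-18030695, minus strand: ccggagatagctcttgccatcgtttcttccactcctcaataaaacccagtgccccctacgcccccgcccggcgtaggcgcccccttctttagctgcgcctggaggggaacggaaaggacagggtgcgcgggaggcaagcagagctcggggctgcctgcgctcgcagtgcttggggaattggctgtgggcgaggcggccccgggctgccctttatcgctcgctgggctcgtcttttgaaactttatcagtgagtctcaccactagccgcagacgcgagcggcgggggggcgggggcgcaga
*Wnt9b*, chr11:103749772-103750071, minus strand: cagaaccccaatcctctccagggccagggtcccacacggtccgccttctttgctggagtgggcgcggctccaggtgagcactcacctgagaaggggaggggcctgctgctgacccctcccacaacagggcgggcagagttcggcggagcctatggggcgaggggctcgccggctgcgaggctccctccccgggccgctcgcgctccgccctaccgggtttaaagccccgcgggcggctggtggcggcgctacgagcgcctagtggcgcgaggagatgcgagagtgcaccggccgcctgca
*Kdr*, chr5:75978406-75978705, minus strand: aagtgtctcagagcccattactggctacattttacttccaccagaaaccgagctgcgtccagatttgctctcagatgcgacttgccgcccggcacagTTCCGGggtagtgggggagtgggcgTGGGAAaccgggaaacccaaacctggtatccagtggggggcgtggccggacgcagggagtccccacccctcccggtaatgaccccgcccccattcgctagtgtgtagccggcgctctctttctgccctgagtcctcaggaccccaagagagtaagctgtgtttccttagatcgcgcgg
*Stab2*, chr10:87007893-87008192, minus strand: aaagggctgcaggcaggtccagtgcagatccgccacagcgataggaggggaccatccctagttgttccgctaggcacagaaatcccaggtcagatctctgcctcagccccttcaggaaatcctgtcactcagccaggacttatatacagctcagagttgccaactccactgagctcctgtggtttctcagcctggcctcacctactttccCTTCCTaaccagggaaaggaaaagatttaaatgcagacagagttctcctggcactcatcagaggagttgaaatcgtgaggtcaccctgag
*Clec4g*, chr8:3720602-3720901, minus strand: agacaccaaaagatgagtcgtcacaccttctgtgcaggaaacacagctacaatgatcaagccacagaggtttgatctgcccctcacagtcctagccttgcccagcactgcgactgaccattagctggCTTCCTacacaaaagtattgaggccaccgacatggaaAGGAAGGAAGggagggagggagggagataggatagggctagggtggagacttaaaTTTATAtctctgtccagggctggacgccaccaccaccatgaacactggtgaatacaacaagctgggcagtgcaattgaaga

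The *Wnt2* and *Wnt9b* windows were the richest of the 7 in G and C, at 65.7% and 71.7% against a median of 52.7% over the 32851 promoters of the table, and held 27 and 29 CpG dinucleotides. *Kdr* held 19 CpG dinucleotides, and the other 4 windows held 4 to 7. No match to any of the 5 motifs lay in the *Wnt2*, *Wnt9b* or *Fcgr2b* window. AGGAAG was found in *Stab1*, *Stab2* and *Clec4g*, with 3 matches in *Clec4g* of which 2 overlap, and in 35.4% of all promoters. *Kdr* held 1 CCGGAA and 1 TGGGAA, which occurred in 14.9% and 25.6% of all promoters. *Clec4g* alone of the 7 held TATAAA, present in 13.6% of all promoters, and GATAAG was in none of the 7 and in 7.44% of all. These matches describe letters in a short window and were not tested for binding.

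*Stab1* and *Stab2* encode the stabilins, large scavenger receptors of sinusoidal endothelium that clear hyaluronan and modified proteins. In WT livers, *Stab2* (ENSMUSG00000035459) had a lowest, median and highest level of 24.7, 27.2 and 30.6 CPM at 0 hours and of 22.4, 23.5 and 28.7 CPM at 6 hours. At 24 hours the 4 WT livers gave 10.3, 6.46, 20.4 and 11.8 CPM, all below every WT liver of the earlier times. SIRTintKO livers had 24.7, 29.2 and 43.8 CPM (lowest, median, highest) at 0 hours. The 5 SIRTintKO livers at 6 hours gave 22.3, 17.8, 21.1, 31.9 and 17.3 CPM. At 24 hours the lowest, median and highest of 7 SIRTintKO livers were 9.98, 12.3 and 19.5 CPM, all below the lowest SIRTintKO liver at 0 hours. *Stab2* fell in both genotypes from 0 to 24 hours, with a log2 fold change of -1.16 (SE 0.228, adjusted p = 0.000273, edgeR quasi-likelihood) in WT and of -1.22 (SE 0.189, adjusted p = 4.9e-06) in SIRTintKO livers. It was the only member that passed in the comparison of 24 with 6 hours in both genotypes, at -0.99 in WT and -0.65 in SIRTintKO livers.

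*Stab1* (ENSMUSG00000042286) moved less. WT livers had 28.4, 34.7 and 45.1 CPM at 0 hours and 27.3, 40.6 and 56.7 CPM at 6 hours (lowest, median, highest). At 24 hours they gave 18, 19.8, 27.6 and 21.8 CPM, and only the highest of the 4 reached the range of the 6-hour livers. The log2 fold change from 0 to 24 hours was -0.70 (SE 0.203, adjusted p = 0.00851, edgeR) in WT livers. SIRTintKO livers overlapped across all 3 times, with 29.4, 33.1 and 54.6 CPM at 0 hours, 35.2, 29.9, 32.9, 40.2 and 26 CPM at 6 hours, and 24.9, 27.1 and 41.9 CPM at 24 hours. There the change at 24 hours was -0.29 with a 95% confidence interval from -0.64 to 0.06, and it did not pass.

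*Clec4g*, which encodes the sinusoidal lectin LSECtin, had the widest spread of the receptors among the 24-hour WT livers, from 1.94 to 27.4 CPM. WT livers had 30.4, 41.2 and 47.6 CPM at 0 hours and 21.8, 26.8 and 67.5 CPM at 6 hours, where liver 6 stood apart from the other 5, which reached 33.4 CPM. The 4 WT livers at 24 hours gave 4.98, 1.94, 27.4 and 22.3 CPM, so livers 1 and 2 lay far below livers 3 and 4, and the latter lay within the 6-hour range. In SIRTintKO livers the lowest, median and highest were 29.97, 40.1 and 55.5 CPM at 0 hours, the 6-hour livers gave 29.1, 26.5, 25, 42.7 and 12.9 CPM, and at 24 hours the values were 7.63, 19.9 and 31.9 CPM. *Clec4g* (ENSMUSG00000074491) fell from 0 to 24 hours by edgeR's test, with log2 fold changes of -1.50 (SE 0.469, adjusted p = 0.0136) in WT and -1.12 (SE 0.384, adjusted p = 0.0161) in SIRTintKO livers. When only the groups compared were fitted the WT change was -1.50 with an adjusted p of 0.0788.

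*Fcgr2b* encodes the inhibitory Fc gamma receptor IIb, which takes up small immune complexes in the sinusoids and is also expressed by B cells and macrophages. Its levels in WT livers were 29.8, 35.1 and 41.3 CPM at 0 hours and 16.3, 18.6 and 50.4 CPM at 6 hours. WT liver 6 again was the high value at 6 hours, and the other 5 reached 23.9 CPM, below every 0-hour liver. At 24 hours WT livers gave 8.79, 7.77, 25.8 and 14.7 CPM, all below the 0-hour range. SIRTintKO livers had 31.4, 36.9 and 48.4 CPM at 0 hours and 20.2, 16, 16.4, 26.8 and 11.4 CPM at 6 hours, with no overlap between these times. At 24 hours they had 12.8, 22.1 and 42.4 CPM, where only liver 2 reached the 0-hour range. *Fcgr2b* (ENSMUSG00000026656) fell at 6 hours in SIRTintKO livers (log2 fold change -1.09, SE 0.302, adjusted p = 0.00487, edgeR). The change from 0 to 24 hours passed in both genotypes, at -1.28 (SE 0.329, adjusted p = 0.00352) in WT and -0.75 (SE 0.27, adjusted p = 0.0222) in SIRTintKO livers.

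*Lyve1*, a hyaluronan receptor of sinusoidal and lymphatic endothelium, went the other way. WT livers had 2.31, 4.77 and 7.92 CPM at 0 hours and 4.38, 11.6 and 18.8 CPM at 6 hours, and gave 6.70, 17.9, 5.86 and 4.78 CPM at 24 hours. The 6-hour livers lay mostly above the 0-hour livers, with 4 of 6 over the highest of them, and at 24 hours only liver 2 lay above that range. SIRTintKO livers rose from 2.23, 3.03 and 6.57 CPM at 0 hours to 3.31, 10.9 and 21.4 CPM at 24 hours, with 5 of the 7 above every 0-hour liver, and gave 7.25, 5.07, 4.84, 11.4 and 9.76 CPM at 6 hours. *Lyve1* (ENSMUSG00000030787) passed at 6 hours in WT livers (log2 fold change 1.28, SE 0.424, adjusted p = 0.0172, edgeR) and at 24 hours in SIRTintKO livers (1.57, SE 0.419, adjusted p = 0.00249). The remaining changes from 0 hours were 0.85 (95% confidence interval -0.09 to 1.79) at 24 hours in WT, which was 0.24 without liver 2, and 1.00 (adjusted p = 0.0758) at 6 hours in SIRTintKO livers.

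*Kdr* encodes vascular endothelial growth factor receptor 2, the main signalling receptor for VEGF-A on endothelium. Levels in WT livers were 15.3, 22.3 and 26.6 CPM at 0 hours, 9.65, 12.4 and 17 CPM at 6 hours, and 2.89, 2.91, 10.8 and 11.1 CPM at 24 hours. Livers 1 and 2 were again the low pair of the 4 at 24 hours, and none of the 4 reached the 0-hour range. SIRTintKO livers had 19.996, 22.4 and 28.9 CPM at 0 hours, and every later liver lay below this range. The 6-hour livers gave 13.4, 9.44, 7.36, 14.7 and 6.53 CPM, and the 24-hour livers had 3.96, 7.11 and 12.1 CPM. *Kdr* (ENSMUSG00000062960) was the 1 member that fell at both times in both genotypes by edgeR's test. Its log2 fold change at 6 hours was -0.76 (SE 0.283, adjusted p = 0.0328) in WT and -1.20 (SE 0.303, adjusted p = 0.00226) in SIRTintKO livers. At 24 hours it was -1.62 (SE 0.335, adjusted p = 0.000469) in WT and -1.70 (SE 0.275, adjusted p = 9.35e-06) in SIRTintKO livers.

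**Figure D1:**
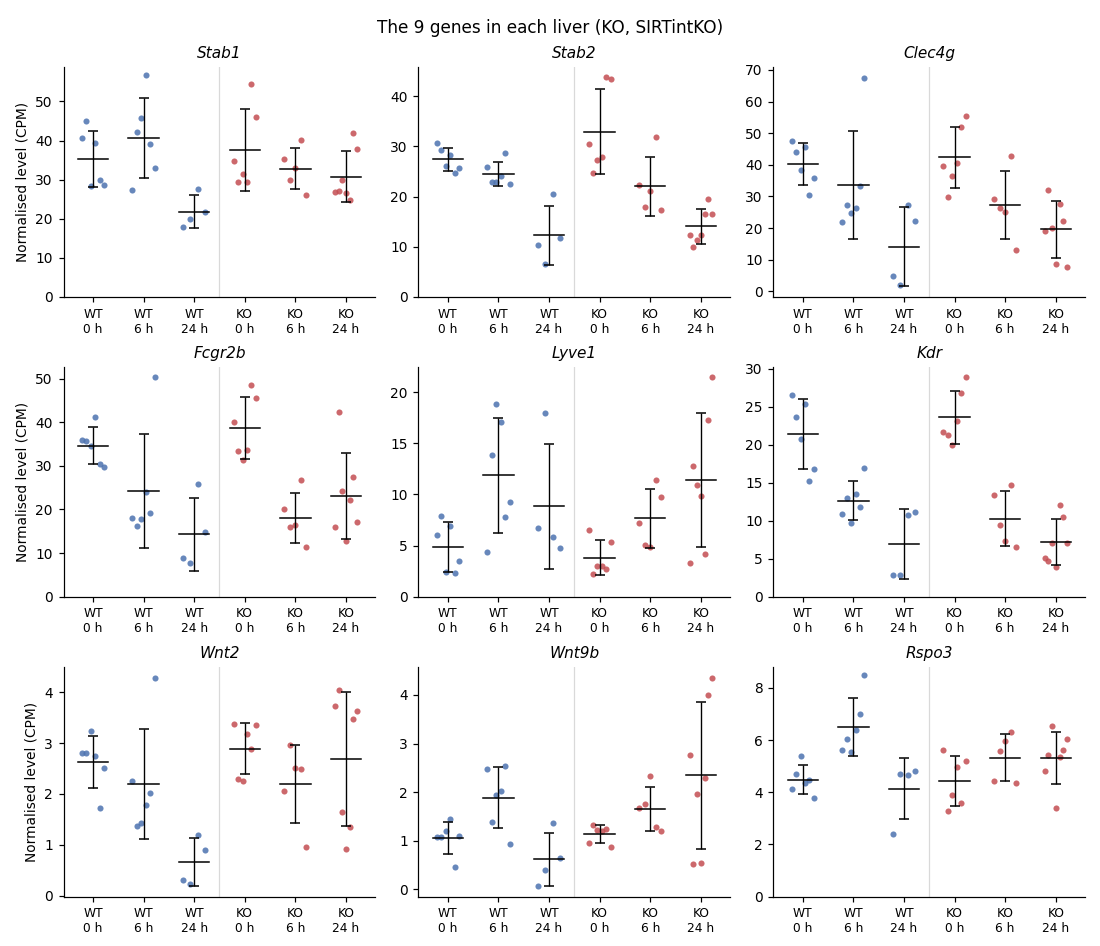
Normalised level (CPM, linear axis) of each of the 9 genes in each of the 34 livers, by genotype and hours after PHx, with 1 point per liver and bars for the mean and SD. *Kdr* and *Stab2* step down with time in both genotypes, and the 4 WT livers at 24 hours, at 0.229 to 1.20 CPM, have the lowest group mean of *Wnt2*.

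*Wnt2* and *Wnt9b*, the angiocrine Wnt ligands of the pericentral endothelium, were measured at low counts, from 4 to 111 reads per liver for *Wnt2* and from 1 to 133 for *Wnt9b* over all livers. WT livers had a lowest, median and highest *Wnt2* level (ENSMUSG00000010797) of 1.72, 2.77 and 3.24 CPM at 0 hours and of 1.38, 1.90 and 4.28 CPM at 6 hours. At 24 hours they gave 0.307, 0.229, 1.20 and 0.896 CPM, all 4 below every WT liver of the earlier times. SIRTintKO livers had 2.25, 3.03 and 3.37 CPM at 0 hours, 2.05, 2.96, 2.52, 2.49 and 0.958 CPM at 6 hours, and 3.73, 4.04, 1.65, 0.922, 1.36, 3.47 and 3.63 CPM at 24 hours. Livers 1, 2, 6 and 7 of the 24-hour group lay above the whole 0-hour range and livers 3, 4 and 5 below it. In WT livers the log2 fold change from 0 to 24 hours was -1.97 (SE 0.431, adjusted p = 0.000842, edgeR) and that from 6 to 24 hours was -1.69 (SE 0.431, adjusted p = 0.00722). The change from 0 to 24 hours in SIRTintKO livers was -0.11, with a 95% confidence interval from -0.78 to 0.56. With only the groups compared in the fit, the WT change from 6 to 24 hours was -1.69 with an adjusted p of 0.0827.

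*Wnt9b* (ENSMUSG00000018486) had 0.462, 1.08 and 1.45 CPM at 0 hours and 0.934, 1.98 and 2.55 CPM at 6 hours in WT livers. The 4 WT livers at 24 hours gave 0.0615, 0.400, 1.36 and 0.647 CPM, of which the first rests on 1 read, and livers 3 and 4 lay within the 0-hour range. SIRTintKO livers had 0.869, 1.21 and 1.31 CPM at 0 hours and 1.67, 1.76, 2.33, 1.27 and 1.20 CPM at 6 hours. At 24 hours they gave 2.77, 0.514, 1.97, 0.542, 2.30, 4.00 and 4.35 CPM, so 5 of 7 were above every 0-hour liver and livers 2 and 4 below. By edgeR's test *Wnt9b* fell from 6 to 24 hours in WT livers (log2 fold change -1.58, SE 0.51, adjusted p = 0.0316) and rose from 0 to 24 hours in SIRTintKO livers (1.07, SE 0.411, adjusted p = 0.0307). Its changes from 0 hours in WT livers did not pass, at 0.82 (95% confidence interval -0.05 to 1.69) at 6 hours and -0.76 (-1.79 to 0.28) at 24 hours. Neither of the changes that passed did so with only the groups compared in the fit, with adjusted p of 0.131 and 0.0539.

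*Rspo3* encodes R-spondin 3, which is made by central vein endothelium and amplifies Wnt signalling by removing the ligases that degrade Frizzled receptors. WT livers had 3.78, 4.42 and 5.41 CPM at 0 hours and 5.54, 6.21 and 8.48 CPM at 6 hours, with no overlap between the 2 times. At 24 hours they gave 2.40, 4.68, 4.66 and 4.83 CPM, where liver 1 was the low value and the other 3 lay inside the 0-hour range. SIRTintKO livers overlapped at all times, with 3.29, 4.43 and 5.62 CPM at 0 hours, 4.43, 5.56, 5.97, 6.31 and 4.37 CPM at 6 hours, and 3.42, 5.43 and 6.54 CPM at 24 hours. *Rspo3* (ENSMUSG00000019880) rose at 6 hours in WT livers by a log2 fold change of 0.54 (SE 0.17, adjusted p = 0.0127, edgeR) and fell from 6 to 24 hours with a log2 fold change of -0.65 (SE 0.192, adjusted p = 0.0197). In SIRTintKO livers it changed by 0.26 at each time from 0 hours, and neither difference passed.

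Set against all genes, the members stood as follows in the time comparisons. In WT livers at 6 hours, *Lyve1* and *Rspo3* were higher and *Kdr* was lower than at 0 hours, or 2 and 1 of 9, while 18.9% of all tested genes were higher and 18.5% were lower. At 24 hours against 0 hours in WT livers, 0 of 9 were higher and 6 were lower, beside 19.5% higher and 14.6% lower over all genes, and the median log2 fold change was -1.16 over the members and 0.02 over all tested genes. From 6 to 24 hours in WT livers 0 were higher and 5 were lower, beside 10% and 6.43% of all genes. SIRTintKO livers had 0 members higher and 3 lower at 6 hours, where 20.9% and 17.6% of all genes passed. At 24 hours against 0 hours they had 2 higher, *Lyve1* and *Wnt9b*, and 4 lower, beside 26.2% and 24% of all genes. From 6 to 24 hours in SIRTintKO livers 0 were higher and 1 was lower, beside 13.2% and 14.4%.

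With the added requirement of an absolute log2 fold change over 1, 1 member was called in WT livers at 6 hours (15.6% of all genes), 5 at 24 hours against 0 hours (15.7%) and 2 at 24 against 6 hours (7.16%). In SIRTintKO livers the same rule called *Fcgr2b* and *Kdr* at 6 hours (16.6% of all genes) and 5 members at 24 hours (23%), which were *Stab2*, *Clec4g*, *Lyve1*, *Kdr* and *Wnt9b*.

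Whether the WT changes at 24 hours passed the test depended on livers 1 and 2. With all 4 livers, 5113 of 14980 genes passed against 0 hours. In livers 3 and 4 the 6 members that fell also lay below every WT liver at 0 hours. Without livers 1 and 2, 0 of the 6 falls from 0 hours passed in edgeR, beside 858 of 15619 genes tested. The adjusted p of these falls ran from 0.0662 for *Stab2* to 0.398 for *Clec4g* in edgeR, and *Kdr* was at -0.97 and *Wnt2* at -1.32 on the log2 scale. With livers 3 and 4 left out instead, 8 members passed, beside 7635 of 15619 genes. Among them *Clec4g* was at -3.54, *Wnt2* at -3.26, *Kdr* at -2.87 and *Wnt9b* at -2.13, whereas *Lyve1* passed as a rise. All of the 6 members that passed with the 4 livers were below 0 in both settings.

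**Figure D2:**
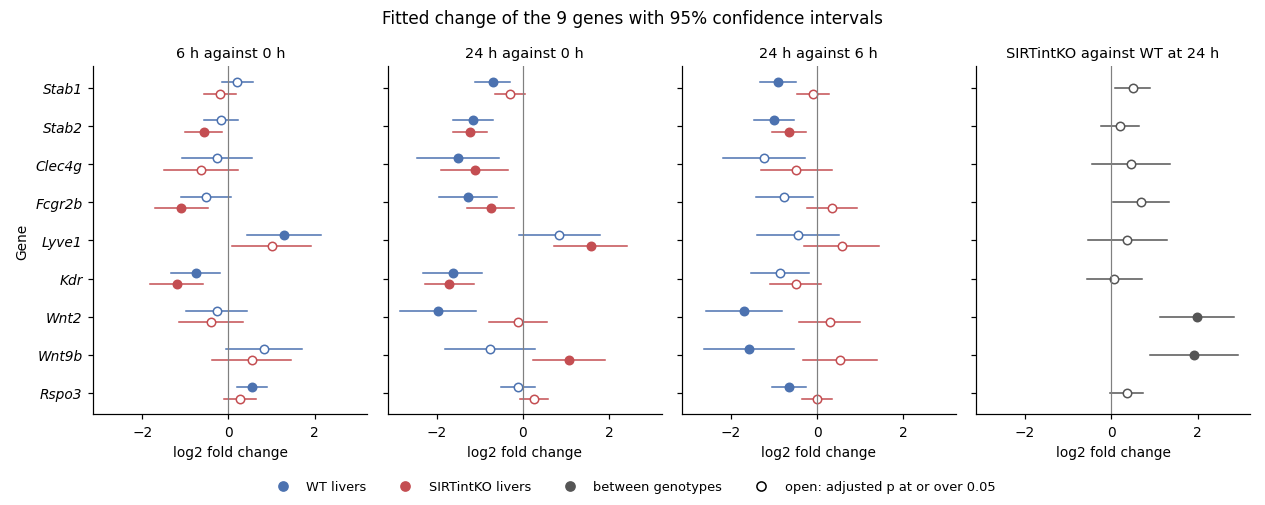
Fitted log2 fold changes of the 9 genes with 95% confidence intervals, in 3 comparisons of times within each genotype (blue for WT and red for SIRTintKO) and between genotypes at 24 hours (grey), with filled points for adjusted p under 0.05. *Wnt2* at 24 hours is at -1.97 in WT and at -0.11 in SIRTintKO livers, and *Wnt2* and *Wnt9b* are the 2 filled points between genotypes.

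Between the genotypes, none of the 9 members passed the test at 0 or at 6 hours. At 0 hours the log2 fold changes of SIRTintKO against WT ran from -0.35 to 0.26. There 0 members passed in edgeR, 0 had an unadjusted p under 0.05 and 0 passed in DESeq2. Over all 14980 genes 0% passed in edgeR and 161 had an unadjusted p under 0.05. At 6 hours the members' log2 fold changes ran from -0.63 to 0.01, with 0 members under each of the same 3 criteria. Over all genes 0% passed in edgeR and 976 had an unadjusted p under 0.05. The 95% confidence interval at 6 hours ran from -0.74 to 0.75 for *Wnt2* and from -1.09 to 0.70 for *Wnt9b*.

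At 24 hours, *Wnt2* was higher in SIRTintKO than in WT livers by a log2 fold change of 1.99 (SE 0.423, 95% confidence interval 1.13 to 2.86, adjusted p = 0.00878, edgeR) and *Wnt9b* by 1.91 (SE 0.5, 95% confidence interval 0.90 to 2.93, adjusted p = 0.0234). These were 2 of 9 members, while 5.81% of all tested genes differed in either direction, and both also exceeded a log2 fold change of 1, as 2.68% of all genes did. The groups overlapped in both genes. For *Wnt2*, 6 of 7 SIRTintKO livers lay above the highest WT liver at 1.20 CPM, and for *Wnt9b* 5 of 7 lay above the highest WT liver at 1.36 CPM. The other 7 members had log2 fold changes from 0.06 for *Kdr* to 0.69 for *Fcgr2b* and did not pass. Of these, *Stab1* at 0.50 (adjusted p = 0.12) and *Fcgr2b* (adjusted p = 0.177) had an unadjusted p under 0.05. That held for 3506 of all 14980 genes tested.

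The difference in *Wnt2* and *Wnt9b* depended on how the spread was estimated and on the WT livers. When only the 11 livers of 24 hours were fitted, the log2 fold changes were 2.00 and 1.92 with adjusted p of 0.259 and 0.316 by edgeR, and 0 of the 13974 genes tested in that fit passed, against 1830 with an unadjusted p under 0.05. Without WT livers 1 and 2 the log2 fold change of *Wnt2* was 1.35 (adjusted p = 0.0493) and that of *Wnt9b* 1.24 (adjusted p = 0.117). Leaving out WT livers 3 and 4 gave 3.27 (adjusted p = 0.000371) for *Wnt2* and 3.28 (adjusted p = 0.0022) for *Wnt9b*, and *Clec4g*, *Fcgr2b*, *Kdr* and *Stab2* then passed as well, beside 2905 of 15619 genes. In that setting *Clec4g* was at 2.48 and *Kdr* at 1.30, whereas without WT livers 1 and 2 they were at -0.35 and -0.59, and their direction turned with the pair of livers left out. With SIRTintKO liver 5 also left out, 7 members passed (the count over all genes is given in the closing section), and *Wnt2* was at 3.42 and *Wnt9b* at 3.33. Of single livers, leaving out WT liver 2 ended the call of *Wnt9b* (1.76, adjusted p = 0.0624), and no single liver ended that of *Wnt2*.

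The difference between the genotypes in the change from 0 to 24 hours, tested as an interaction, was 1.86 for *Wnt2* (95% confidence interval 0.77 to 2.96, unadjusted p = 0.00152, adjusted p = 0.163, edgeR) and 1.82 for *Wnt9b* (0.49 to 3.16, unadjusted p = 0.00904, adjusted p = 0.25). Neither passed, and 0 members passed in edgeR, beside 0.00668% of all genes. In DESeq2 0 members passed as well, and its count over all genes is given in the closing section. At 6 hours the interaction passed for 0 members in either tool, 0 had an unadjusted p under 0.05, and 0% of all genes passed in edgeR. The falls of *Stab2* and *Kdr* at 24 hours had interactions of -0.06 (95% confidence interval -0.65 to 0.53) and -0.08 (-0.93 to 0.78), and both turned positive, at 0.46 and 1.16, without WT livers 3 and 4. In that setting the interaction passed for *Wnt2* (3.13), *Wnt9b* (3.18) and *Clec4g* (2.40), beside 1119 of 15619 genes.

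Other endothelial genes were measured to see how far the members' levels moved with endothelial RNA as a whole. The summed level of 15 pan-endothelial genes, among them *Cdh5* and *Pecam1*, had a lowest, median and highest value of 137, 182 and 223 CPM at 0 hours in WT livers. At 24 hours the 4 WT livers summed to 61.2, 105, 151 and 150 CPM and the 7 SIRTintKO livers to 102, 123, 127, 88.3, 152, 183 and 189 CPM. Of the 15 genes, 0 were higher and 9 were lower at 24 hours against 0 hours in WT livers, where the log2 fold changes had a median of -0.62, and 6 were lower in SIRTintKO livers, with a median of -0.38. None of the 15 passed between the genotypes at 24 hours in edgeR, and the median was 0.21. Of the 15, 3 had an unadjusted p under 0.05, beside 3506 of all 14980 genes tested. The largest falls from 0 to 24 hours in WT livers were those of *Sox7* (-1.52) and *Sox18* (-1.28), endothelial transcription factors, and in SIRTintKO livers those of *Cldn5* (-1.29), a tight junction protein, and *Sox18* (-1.25).

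Per 100 CPM of these genes, *Wnt2* was at 0.503, 0.217, 0.795 and 0.596 CPM in the 4 WT livers at 24 hours and at 3.66, 3.27, 1.30, 1.04, 0.893, 1.90 and 1.93 CPM in the 7 SIRTintKO livers. On this scale the 2 groups did not overlap, and the WT 24-hour livers lay below all WT livers at 0 hours, which ranged from 1.25 to 2.05 CPM. The gap between the groups was narrow, from 0.795 in WT liver 3 (23 *Wnt2* reads) to 0.893 in SIRTintKO liver 5 (29 reads). *Wnt9b* on the same scale was at 0.101 to 0.899 CPM in WT and at 0.416 to 2.72 CPM in SIRTintKO livers at 24 hours, and the groups overlapped. *Kdr* fell below its 0-hour range on this scale too, from 10.6 to 13.2 CPM at 0 hours to 2.77 to 7.38 CPM at 24 hours in WT livers, and from 11.6 to 13.3 to 3.76 to 7.91 CPM in SIRTintKO livers. *Stab1* did not, with 14.5 to 29.3 CPM at 24 hours around a 0-hour range of 18 to 21.9 CPM in WT livers. These ratios are described without a test.

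**Figure D3:**
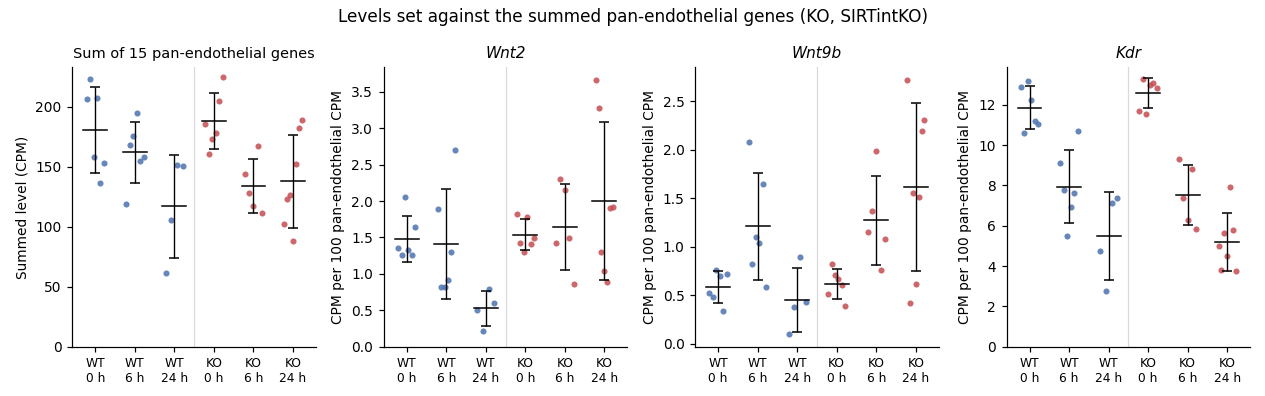
Summed level of 15 pan-endothelial genes (CPM) and levels of *Wnt2*, *Wnt9b* and *Kdr* per 100 CPM of that sum in each liver, with 1 point per liver and bars for the mean and SD. *Wnt2* lies at 0.217 to 0.795 in WT and at 0.893 to 3.66 in SIRTintKO livers at 24 hours.

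A list of 12 further sinusoidal genes, 11 of them tested, was measured beside the receptors among the members. In WT livers 8 of 11 were lower at 24 hours than at 0 hours and 0 were higher, where the log2 fold changes had a median of -1.09, and in SIRTintKO livers 10 of 11 were lower and 0 higher, with a median of -1.06. *Dnase1l3*, a secreted DNase, was the largest fall in both, at -2.41 (adjusted p = 0.00021, edgeR) and -2.28 (adjusted p = 9.7e-06). *Ehd3*, a membrane trafficking protein, followed at -1.95 and -1.78. Between the genotypes at 24 hours 0 of 11 passed in edgeR and 1 had an unadjusted p under 0.05, beside 3506 of all 14980 genes.

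Genes of the central vein, a source of *Wnt9b* and *Rspo3*, and of portal endothelium were compared next. Of 6 central vein genes, *Thbd*, the thrombin receptor thrombomodulin, and *Lhx6*, a transcription factor, were higher in SIRTintKO than in WT livers at 24 hours, at 1.60 (adjusted p = 0.027, edgeR) and 1.35 (adjusted p = 0.036). All 6 had an unadjusted p under 0.05 in that comparison, beside 3506 of all 14980 genes tested. Their log2 fold changes ran from 0.54 to 1.60, with a median of 1.22. Of 6 portal genes only *Msr1*, which macrophages also express, was higher, at 1.16 (adjusted p = 0.014), and the median was -0.47. *Thbd* rose from 0 to 24 hours in SIRTintKO livers by 2.92, while *Cdh13*, a cadherin, fell in both genotypes, at -1.18 in WT and -0.70 in SIRTintKO livers.

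Genes of vessel sprouting and of activated endothelium were counted next. Of 7 sprouting genes tested, 5 were higher and 1 was lower at 24 hours against 0 hours in SIRTintKO livers, and in WT livers 1 was higher and 0 were lower. Of those with a mean of at least 1 CPM, *Esm1* (3.58), a marker of tip cells, rose and *Dll4* (-1.05), a Notch ligand, fell in SIRTintKO livers. Of 4 adhesion genes of activated endothelium, *Vcam1* (1.99), *Selp* (2.87), *Icam1* (2.90) and *Sele* (5.88) all rose at 24 hours in SIRTintKO livers, and 1 of them, *Selp* (1.95), rose in WT livers. *Vcam1* was also higher in SIRTintKO than in WT livers at 24 hours, by 1.56 (adjusted p = 0.023, edgeR). At 0 hours the 4 adhesion genes summed to 15.2, 18.9 and 107 CPM in WT livers (lowest, median, highest) and to 13.5, 20 and 25.2 CPM in SIRTintKO livers. The highest WT sum thus lay far above the WT median, and its effect on the WT calls was not tested. Capillary-type genes rose in both, 5 of 7 in SIRTintKO and 3 of 7 in WT livers, with the basement membrane collagen gene *Col4a1* at 1.89 and 1.27.

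The VEGF and angiopoietin list, which holds the ligands and partners of *Kdr*, had 2 of 12 tested genes higher and 2 lower at 24 hours in WT livers and 3 of each in SIRTintKO livers. *Vegfa*, the main ligand of *Kdr*, fell at 6 hours in both genotypes, at -0.63 (adjusted p = 0.01, edgeR) in WT and -0.74 (adjusted p = 0.0053) in SIRTintKO livers. *Flt4*, which encodes VEGF receptor 3, fell at 24 hours, at -0.99 in WT livers and -0.75 in SIRTintKO livers, and *Nrp1*, a VEGF co-receptor, rose in WT livers by 1.30. Among 11 other endothelial signals to hepatocytes, *Id1*, a target of BMP signalling that *Kdr* signalling also induces, was the largest rise at 24 hours in both, at 2.11 and 2.63. *Bmp2*, which encodes a bone morphogenetic protein, fell too, at -1.72 in WT livers and -1.11 in SIRTintKO livers, and *Ccn2*, a matrix-associated signalling protein, rose by 1.81 in SIRTintKO livers. *Jag1*, a Notch ligand, was lower in SIRTintKO than in WT livers at 24 hours, at -1.24 (adjusted p = 0.0087). The 4 shear-stress genes had *Nos3*, the endothelial nitric oxide synthase, and *Klf4*, a flow-responsive transcription factor, higher at 24 hours in WT livers, at 0.87 and 1.37. In SIRTintKO livers 3 of the 4 were higher, *Nos3* at 1.24, *Klf4* at 1.08 and *Thbd* at 2.92.

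Of 18 other Wnt and R-spondin ligands and secretion genes 8 were tested, and none of these 8 was lower at 24 than at 0 hours. In WT livers 2 were higher, and in SIRTintKO livers 4 were. *Wnt5a*, a ligand of non-canonical signalling, rose by 1.53 in WT and 1.59 in SIRTintKO livers, and *Wnt7b* rose by 3.01 in SIRTintKO livers. *Wls*, the carrier that all Wnt ligands need for secretion, rose from 6 to 24 hours in SIRTintKO livers by 0.94. Between the genotypes at 24 hours 1 of the 8 passed, *Wnt10a*, which is named here after its values were seen because its mean was under 1 CPM. It was lower in SIRTintKO livers (log2 fold change -2.79, SE 0.834, adjusted p = 0.0454, edgeR), the opposite direction to *Wnt2* and *Wnt9b*. Its lowest, median and highest levels were 0, 0.957 and 7.75 CPM in WT and 0.0938, 0.327 and 0.587 CPM in SIRTintKO livers, so the groups overlapped.

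Receptors and targets of the ligands were lower or mixed. Among 15 tested Wnt and R-spondin receptors, 3 were higher and 1 lower at 24 hours in WT livers, and 1 was higher and 5 lower in SIRTintKO livers, led by the Frizzled receptor *Fzd8* (-1.47) and the R-spondin receptor *Lgr5* (-1.23). Of 16 tested Wnt targets in liver, 1 was higher and 5 were lower at 24 hours in WT livers, where the log2 fold changes had a median of -0.62. In SIRTintKO livers 1 was higher and 10 were lower, with a median of -1.02. *Cyp1a2*, a pericentral cytochrome, was the largest fall in both genotypes (-3.86 and -3.66), and *Glul*, the pericentral glutamine synthetase, fell with a log2 fold change of -2.83 in SIRTintKO livers and *Cyp2e1* with one of -1.76 in WT livers. Between the genotypes at 24 hours *Slc1a2*, a glutamate transporter, was the 1 target that differed, and it was lower in SIRTintKO livers at -1.42 (adjusted p = 0.045, edgeR), opposite in direction to *Wnt2* and *Wnt9b*. The target list's median in that comparison was -0.49. Of 4 tested Wnt antagonists, *Notum*, itself a Wnt target, fell at 6 hours in both genotypes, at -2.17 and -1.56.

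**Figure D4:**
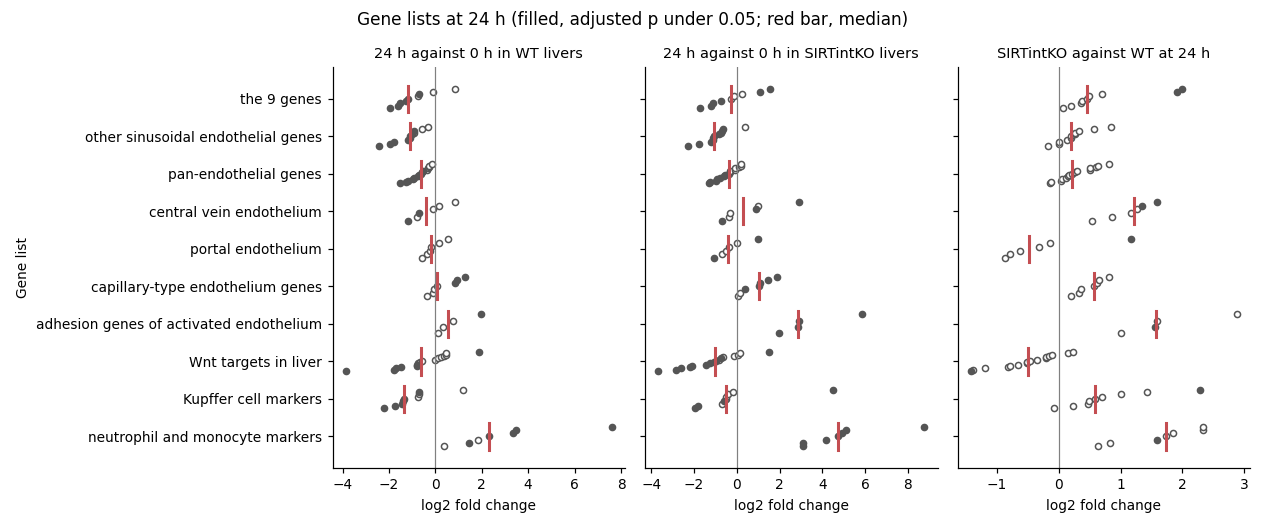
Log2 fold changes of single genes in 10 lists, for 24 against 0 hours in each genotype and for SIRTintKO against WT at 24 hours, with 1 point per gene, filled at adjusted p under 0.05, and a red bar at the list median. The medians of the other sinusoidal genes are -1.09 in WT and -1.06 in SIRTintKO livers, the median of the Wnt target list between genotypes is -0.49, and that of the central vein list is 1.22.

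Markers of other cell types moved at the same times. Of 7 tested neutrophil and monocyte markers, 5 rose at 24 hours in WT and 7 in SIRTintKO livers, and *Ccr2*, a monocyte chemokine receptor, was higher in SIRTintKO livers by 1.59 (adjusted p = 0.015, edgeR). Their summed level at 24 hours ranged from 7.67 to 157 CPM in WT and from 24.9 to 1099 CPM in SIRTintKO livers. Of 9 Kupffer cell markers 6 fell in WT livers, led by *Folr2* (-2.23) and *Timd4* (-1.72), and 3 fell and 1 rose in SIRTintKO livers. Their sum at 24 hours was 39.4 to 154 CPM in WT and 117 to 359 CPM in SIRTintKO livers. Stellate cell markers, 9 tested, had 4 lower and 1 higher in each genotype, and 4 of 6 cholangiocyte markers rose in each. Hepatocyte markers had 3 of 7 lower in WT and 2 of 7 in SIRTintKO livers at 24 hours, and *Alb* was higher in SIRTintKO than in WT livers by 0.85 (adjusted p = 0.028). The part that any of these cells play in the members' levels was not tested.

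For the lymphatic list, which bears on *Lyve1*, *Prox1*, which hepatocytes also express, rose at 6 hours in both genotypes, at 1.26 in WT and 1.29 in SIRTintKO livers. *Mmrn1* rose in WT livers by 2.54 (adjusted p = 0.012, edgeR), and *Ccl21a* fell in SIRTintKO livers at 24 hours with a log2 fold change of -2.04. The summed level of the 5 lymphatic genes was 51.8 to 77.9 CPM at 0 hours and 99.7 to 121 CPM at 6 hours in WT livers. This sum includes *Prox1* and also *Reln*, which is on the stellate cell list too. How much of it came from lymphatic endothelium was not tested. The remaining lists held few tested genes that passed at 24 hours against 0 hours. Those were 0 of 4 mesothelium markers in WT and 2 in SIRTintKO livers, 1 of 2 lymphocyte markers in WT and both in SIRTintKO livers, all lower, and 1 of 5 red blood cell genes in WT and 2 in SIRTintKO livers. Of 7 immediate-early genes, 3 were lower in SIRTintKO than in WT livers at 24 hours, led by *Egr1* (-2.35) and *Ier2* (-1.46).

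The genes whose group means ran most like those of *Stab2* over the 6 groups were sought by the root mean square difference of centred log2 CPM means among 12377 genes of at least 1 CPM. They were *Gpr182*, an atypical chemokine receptor of sinusoidal endothelium, at 0.0699, *4931414P19Rik* at 0.0762, *Erg*, an endothelial ETS factor, at 0.0981, ENSMUSG00000131561 at 0.103 and *Rslcan18* at 0.107. The median over all genes compared was 0.599. For *Wnt2* the nearest were *Cd55* at 0.207, *Zmat1* at 0.245, *Itgal* at 0.246, *Fabp7* at 0.268 and *Cd300c2* at 0.278, against a median of 0.779. Each likeness rests on 6 means that share their livers, and is a description.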

How the data were processed

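Whole livers of 34 mice in 6 groups of genotype and time were measured by RNA-seq. The authors deposited gene-level expected counts, estimated by Salmon after STAR alignment of paired 100 bp reads within nf-core/rnaseq, with GRCm39 named in the submitters' processing notes. Of these values 4.975% were not whole and were rounded. The letter x had been lost from the table's gene symbols, and 1316 symbols were restored by gene identifier. Versions of STAR, Salmon and the pipeline were not given in the sources used here. 1 column matched no sample label and was not used.

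Counts were fitted in R 4.3.3 with edgeR 4.0.16 (TMM factors, filterByExpr by group, 1 mean per group over all 34 libraries, quasi-likelihood F test), in place of the DESeq2 of the study's methods, which was run as an alternative (DESeq2 1.42.0). There were 11 contrasts, with Benjamini-Hochberg adjustment over the 14980 genes tested in each. CPM use TMM-scaled library sizes, and log2 CPM a prior count of 2. The median library total was 16807340 counts. Each sample is a separate mouse by its label. The steps were tested on simulated data.

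The members and the gene lists were chosen with earlier results of these data known. Lists share genes, such as *Thbd* in the central vein and shear-stress lists. From each list up to 2 genes with the largest rise and up to 2 with the largest fall, at an adjusted p under 0.05 and a mean of at least 1 CPM, could be named in a contrast, and any gene of a list with few members. Samples numbered alike did not deviate together, so the numbers were not used as pairs. Alternatives were other scalings, filters, sample sets, the call rule, a replicate block, each library left out, and, chosen after seeing the data, sets of 24-hour livers left out.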

Additional observations from a re-analysis of the deposited data

Results flagged for a closer look

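Each of the 9 genes was looked at in each of the 6 groups, 54 groups of values in all, for a liver far from the others of its group, and 5 were found, where chance alone marks about 1 group in 20. WT 6-hour liver 6 was the high value in 3 of them, with *Clec4g* at 67.5 CPM against a next value of 33.4, *Fcgr2b* at 50.4 against 23.9 and *Wnt2* at 4.28 against 2.26 CPM. The library of this liver had the lowest TMM factor of the 34, at 0.740, and its name lies among those of 24-hour livers. On the second principal component, which held 13.5% of the variance, this liver lay at -37.6. The other WT 6-hour livers lay from -52.0 to -40.1 there, and the WT 24-hour livers from -5.96 to 36.6. Without WT 6-hour liver 6 the WT change of *Fcgr2b* at 6 hours was -0.86 on the log2 scale and passed. *Lyve1* was high in WT 24-hour liver 2, at 17.9 CPM with the next liver at 6.70, and *Rspo3* was low in WT 24-hour liver 1, at 2.40 CPM with the next liver at 4.66 CPM.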

How the results depend on the processing

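Limits come first from the 24-hour WT group, whose 4 livers lie in separate places, and from the low counts of *Wnt2* and *Wnt9b*. Differences from 0 hours cannot be told apart from a difference between library series, and whole liver does not resolve cell numbers. The causes of the changes below were not tested.

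DESeq2, other size factors and upper-quartile scaling kept every count of members within 1.5 times its value. With every gene of at least 1 count, and likewise with at least 10 counts in every library, 3 rather than 5 members passed from 6 to 24 hours in WT livers, and the latter filter removed *Wnt2* and *Wnt9b*, leaving 0 between genotypes at 24 hours. With only the groups compared, 1 passed from 6 to 24 hours in WT and 5 rather than 3 at 6 hours in SIRTintKO livers. For the latter comparison the count over all genes is not given. Between genotypes at 24 hours 0 members passed in that fit, where 0 of all genes passed against 870 with all livers. Requiring a log2 fold change over 1 left 1 at 6 hours and 2 from 6 to 24 hours in WT, and 0 from 6 to 24 hours in SIRTintKO livers.

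Sample numbers did not pair the livers (76 same-numbered pairs, r from -0.306 to 0.217). The fit with the replicate block gave 1 member between genotypes at 24 hours, *Wnt2* at 1.84 (adjusted p = 0.0344, edgeR), with *Wnt9b* at 1.70 (adjusted p = 0.0925), and 311 of all genes in place of 870.

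Without WT 24-hour livers 1 and 2, 0 members passed at 24 against 0 or 6 hours in WT and 1 between genotypes. Without WT livers 3 and 4, 8 passed from 6 to 24 hours, 6 between genotypes and 3 in the interaction at 24 hours. With SIRTintKO liver 5 also left out these were 8, 7 and 3, and 2 from 6 to 24 hours in SIRTintKO livers. All genes passing between genotypes at 24 hours numbered 2655 without WT livers 1 and 2 and 2905 without 3 and 4. For the single livers left out next, counts over all genes are not given. Those ranges therefore do not show whether the members moved more than other genes. Leaving out 1 liver at a time gave 1 to 4 members at 6 hours (lowest without WT 6-hour liver 3) and 3 to 8 from 6 to 24 hours in WT (without 24-hour liver 1 and liver 3), 0 to 1 from 6 to 24 hours in SIRTintKO livers (lowest without 6-hour liver 4), 1 to 3 between genotypes at 24 hours (lowest without WT liver 2), and 0 to 1 in the interaction at 24 hours (highest without SIRTintKO liver 5).

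Over all genes, from 6 to 24 hours in WT livers 2468 passed, against 645 with only the groups compared, 1488 without livers 1 and 2, 5169 without 3 and 4, and 5359 with SIRTintKO liver 5 also out. At 24 against 0 hours in WT the counts were 5113, against 3346 with only the groups compared, 858 without livers 1 and 2, 7635 without 3 and 4 and, with liver 5 also out, 7742. Between genotypes at 24 hours 432 passed without the filter on low counts, and 2732 with liver 5 also out. The interaction at 24 hours passed for 1 gene, against 106 in DESeq2, 8 without that filter, 1125 and 1119 without either pair of WT livers, and 1030 with liver 5 also out.

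Calls that single livers ended, with the value without that liver, were as follows. *Kdr* at 6 hours in WT was between -0.76 and -0.69 without 0-hour liver 1, 2 or 4 or 6-hour liver 1, 3 or 5, and *Lyve1* was at 1.09 without 6-hour liver 3. *Clec4g* at 24 hours in WT was at -1.23 and -1.14 without 24-hour livers 1 and 2. From 6 to 24 hours in WT, *Wnt9b* was between -1.59 and -1.20 without 6-hour liver 1 or 5 or 24-hour liver 1, 2 or 4, and *Rspo3* at -0.43 without 24-hour liver 1. In SIRTintKO livers *Stab2* at 6 hours was between -0.56 and -0.48 without 0-hour liver 5 or 6 or 6-hour liver 2, 3 or 5, and from 6 to 24 hours at -0.46 without 6-hour liver 4. At 24 hours *Wnt9b* was between 0.84 and 1.02 without 0-hour liver 1 or 6 or 24-hour liver 6 or 7, and *Fcgr2b* at -0.65 without 24-hour liver 4.

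Signs turned only for values that had not passed. Without WT livers 1 and 2, *Rspo3* in WT at 24 against 0 hours was at 0.085, *Stab2*, *Kdr* and *Clec4g* between genotypes at -0.19, -0.59 and -0.35, and the *Clec4g* interaction at -0.42. Without WT livers 3 and 4, *Lyve1* from 6 to 24 hours in WT was at 0.09 and between genotypes at -0.15, and the interactions of *Stab2* and *Kdr* were at 0.46 and 1.16. With SIRTintKO liver 5 also out, *Lyve1* was at 0.06, *Wnt2* in SIRTintKO at 24 against 0 hours at 0.048, and those interactions at 0.46 and 1.03. In that setting *Rspo3* in WT at 24 against 0 hours, at -0.30, and *Stab2* and *Kdr* between genotypes, at 0.73 and 1.17, kept the sign of the main fit. *Rspo3* from 6 to 24 hours in SIRTintKO livers, at -0.0032, turned to 0.018 with DESeq2, 0.016 with its size factors, 0.059 with upper-quartile scaling, 0.029 with the stricter filter, 0.021 with only the groups compared, and 0.012 and 0.038 without the last sets of livers. *Wnt2* between genotypes at 6 hours, at 0.0082, turned to -0.0028, -0.0039, -0.051 and -0.011 in the same order without the filter, and to -0.0031 without the last set. 

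Over single livers left out, the difference between genotypes at 24 hours ran from -0.20 to 0.39 for *Kdr* and from -0.0087 to 0.54 for *Stab2*, and their interactions from -0.34 to 0.25 and from -0.27 to 0.28. At 6 hours between genotypes *Wnt2* ran from -0.12 to 0.31 and *Clec4g* from -0.53 to 0.025, and the *Wnt2* interaction from -0.26 to 0.17. At 0 hours *Clec4g* ran from -0.022 to 0.16, *Stab1* from -0.046 to 0.17, *Rspo3* from -0.093 to 0.064 and *Wnt9b* from -0.059 to 0.20. In time comparisons *Lyve1* from 6 to 24 hours in WT was lowest, at -1.03, without WT 24-hour liver 2, *Rspo3* ran from -0.19 to 0.086 in WT at 24 against 0 hours and from -0.058 to 0.082 in SIRTintKO from 6 to 24 hours, *Stab1* from -0.16 to 0.0023 in the latter, and *Wnt2* from -0.23 to 0.038 in SIRTintKO at 24 against 0 hours. With a prior count of 0.5, 4 of the 5 genes nearest *Stab2* and 4 of those nearest *Wnt2* were kept.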
